A study of Mus musculus with 8 samples.

Results

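The genes described here are 34 genes of the endoplasmic reticulum folding machinery and the integrated stress response, chosen by name from the 56832 genes and other features of the deposited expression table. They fall into 20 genes of folding and degradation in the endoplasmic reticulum, 4 stress sensors and transcription factors, 9 genes of the integrated stress response, and Crebrf, which acts on the transcription factor CREB3. All 34 were in the table, and 32 averaged 10 or more normalized counts, the minimum for testing. Trib3 and Chac1 did not.

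Microglia, the macrophages that live in brain tissue, were sorted by fluorescence from young adult male 5xFAD mice and profiled by RNA-seq. This line carries mutant human amyloid precursor protein and presenilin transgenes driven in neurons by the Thy1 promoter, so microglia meet amyloid made by other cells, and both groups carry the transgenes. The saline group (n = 4 libraries) and the ethanol group (n = 4 libraries, 3 g/kg as a 20% solution) were injected intraperitoneally on 5 days a week for 4 weeks and sampled after 2 weeks without injections. The labels number the libraries 1 to 4 in each group without tying any of them to a single animal, so p-values measure the spread between libraries, which may be partly technical.

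Proteins that enter the secretory pathway fold in the endoplasmic reticulum with the help of chaperones, disulfide isomerases and lectins, and those that fail are returned to the cytosol for degradation. When unfolded proteins accumulate, the sensors IRE1, PERK and ATF6 are activated: IRE1 splices Xbp1 mRNA, ATF6 is cut into a transcription factor, and PERK phosphorylates the initiation factor eIF2-alpha. That phosphorylation is shared with kinases that sense amino acid shortage, heme and viral RNA, and it raises translation of ATF4, which drives amino acid synthesis and feedback genes. This shared arm is called the integrated stress response.

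Totals were 14271351 to 17231301 assigned reads per library. The microglial markers were abundant in each library, with 160189 to 182438 normalized counts of P2ry12, 117436 to 138877 of Csf1r, 92964 to 133274 of Cx3cr1 and 76672 to 87171 of Tmem119. Plasma cells make large amounts of these folding proteins. The B and plasma cell markers Ms4a1, Mzb1 and Sdc1 were at 0 in all 8 libraries, which for each library allows up to 3 reads, by counting error only. Other markers of that list were present in each library, with 7219 to 8596 normalized counts of Ighm, 563 to 1033 of Cd79b and 424 to 642 of Tnfrsf17, and their part in the results was not tested. Neutrophil markers held between 0.0164% and 0.0932% of the counts of a library. On the first principal component (20.1% of the variance over all tested genes) samples 1 and 2 of both groups lay between -31.4 and -13.9 and samples 3 and 4 between 4.58 and 60.7. This division was known from earlier results of these data and is not stated in the labels, so values within each set are given beside those over all libraries. The number in each library name follows the division in part, so a covariate for that number is not independent of it.

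The promoters were searched for the exact letters of response elements that the stress factors are known to bind. Elements with other letters or outside the stretch searched were not looked for, so a gene without a match may still carry one. RefSeq promoter windows (build GRCm38.p6, an older build than the GRCm39 of the expression table), from 250 bases before to 50 bases after the transcription start, were found for 30 of the 34 genes. The windows of Atf6, Derl1, Hyou1 and Manf were not used here. Both strands were searched for the endoplasmic reticulum stress element ERSE (CCAAT and CCACG separated by 9 bases, bound by ATF6 with NF-Y), for ERSE-II (ATTGG and CCACG separated by 1 base) and for the core of the CEBP-ATF response element, CARE (TGATG and AA separated by 1 base, bound by ATF4). The sequences below are shown because each holds such a match. They run 5′ to 3′ on the strand of the gene, with the matched letters in capitals, and a match on the other strand reads CGTGG and ATTGG for ERSE and TT and CATCA for CARE.
Hspa5, ERSE, chr2:34771840-34772089, plus strand: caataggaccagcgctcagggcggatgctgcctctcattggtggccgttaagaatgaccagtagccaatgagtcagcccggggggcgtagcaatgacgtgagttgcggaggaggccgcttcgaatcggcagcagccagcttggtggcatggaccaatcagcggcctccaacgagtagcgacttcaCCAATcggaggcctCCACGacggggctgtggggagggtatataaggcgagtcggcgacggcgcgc
Hsp90b1, ERSE, chr10:86705518-86705671, minus strand: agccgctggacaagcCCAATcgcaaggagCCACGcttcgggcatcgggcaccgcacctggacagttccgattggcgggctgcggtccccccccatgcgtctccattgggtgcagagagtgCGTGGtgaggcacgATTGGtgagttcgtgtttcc
Dnajc3, ERSE, chr14:118937812-118937860, plus strand: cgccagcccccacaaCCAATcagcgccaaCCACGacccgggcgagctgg
Pdia6, ERSE, chr12:17266476-17266524, plus strand: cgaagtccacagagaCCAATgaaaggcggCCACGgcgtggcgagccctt
Creld2, ERSE, chr15:88819505-88819553, plus strand: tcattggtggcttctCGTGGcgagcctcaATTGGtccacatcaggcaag
Calr, ERSE, chr8:84847060-84847108, minus strand: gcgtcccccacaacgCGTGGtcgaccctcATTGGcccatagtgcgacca
Canx, ERSE, chr11:50325785-50325833, minus strand: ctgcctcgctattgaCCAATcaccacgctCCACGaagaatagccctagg
Syvn1, ERSE, chr19:6046517-6046565, plus strand: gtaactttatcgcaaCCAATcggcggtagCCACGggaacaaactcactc
Dnajb11, ERSE-II, chr16:22857844-22857870, plus strand: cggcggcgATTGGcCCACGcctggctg
Herpud1, ERSE-II, chr8:94386362-94386402, plus strand: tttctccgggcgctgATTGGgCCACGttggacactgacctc
Herpud1, CARE, chr8:94386302-94386339, plus strand: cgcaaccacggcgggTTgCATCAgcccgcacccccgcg
Trib3, CARE, chr2:152344031-152344054, minus strand: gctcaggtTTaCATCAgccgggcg
Chac1, CARE, chr2:119351034-119351071, plus strand: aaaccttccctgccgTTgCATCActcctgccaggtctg
Asns, CARE, chr6:7693210-7693247, minus strand: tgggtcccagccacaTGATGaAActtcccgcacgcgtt

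ERSE was present in 8 of the 30 genes with a window (26.7%) and in 0.137% of all 27025 genes with a window, 37 genes in all. Its carriers were the chaperones Hspa5 and Hsp90b1 (2 matches), the co-chaperone Dnajc3, the isomerases Pdia6 and Creld2, the lectins Calr and Canx, and the ubiquitin ligase Syvn1. ERSE-II was present in Dnajb11 and Herpud1, and in 0.0444% of all genes with a window. CARE was present in Trib3, Chac1, Asns and Herpud1, 13.3% of the 30 genes, against 4.51% of all genes with a window. Herpud1 thus held both an ERSE-II and a CARE match. A match is a run of letters and was not tested for binding here.

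**Figure D1:**
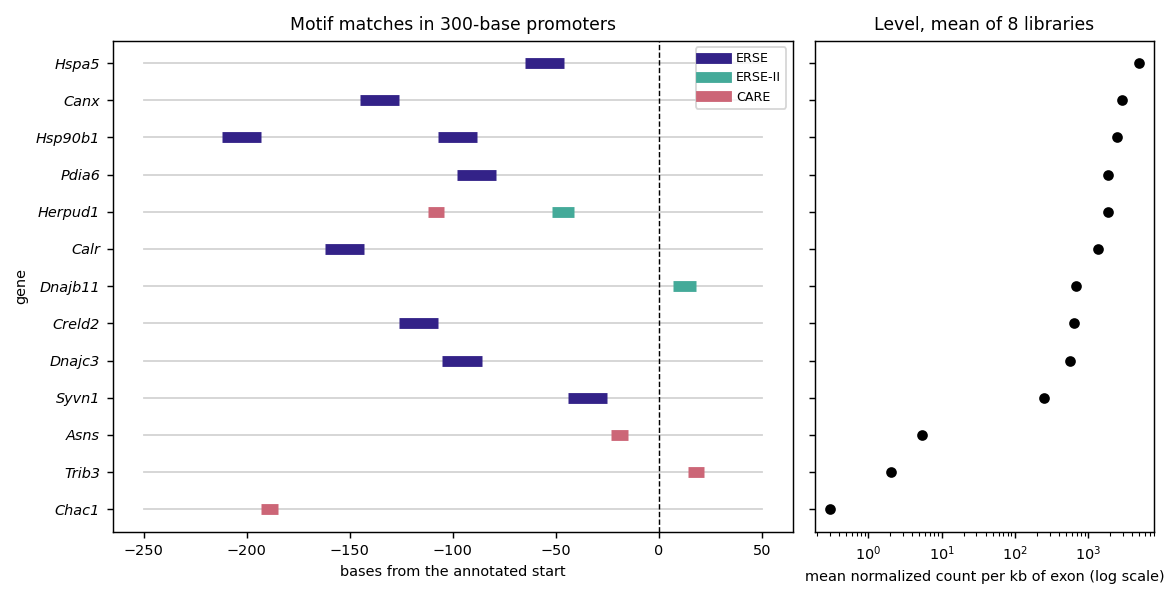
Positions of matches to ERSE, ERSE-II and CARE relative to the transcription start (x axis, bases) in the 13 promoters that hold one, with the mean normalized count per kb of exon of each gene in the right panel (log scale), by which the genes are ordered on the y axis. The 8 genes with ERSE lie between 248 and 4945 normalized counts per kb, and the 4 genes with CARE lie at 1852 (Herpud1), 5.35 (Asns), 2.03 (Trib3) and 0.300 (Chac1).

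Per kb of exon, the scale on which levels of different genes can be compared, the most abundant of the 34 genes were folding genes and the least abundant were targets of the integrated stress response, with overlap in between. Pdia3, a disulfide isomerase that works with the lectins, had a mean of 4954 normalized counts per kb over the 8 libraries, and Hspa5, the luminal HSP70 chaperone BiP, had 4945. Canx followed at 2948, Hsp90b1 at 2503, P4hb at 2296 and Xbp1, in the sixth place of the 34, at 2028. The sensors lay much lower, with Eif2ak3 (PERK) at 130 and Atf6 at 112 normalized counts per kb and Ern1 (IRE1) at 59.7. Folding genes reached down to 248 per kb for Syvn1 and 130 for Hyou1. Among the genes of the integrated stress response Phgdh had 659 per kb, Atf4 340, Ddit3 (CHOP) 231, Asns 5.35, Trib3 2.03 and Chac1 0.300, the last place. The lengths come from an annotation of an older build, matched by symbol for all 34 genes.

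No gene of the 34 was called different between ethanol and saline microglia. In limma 0 of the 32 tested genes passed a Benjamini-Hochberg threshold of 0.05, where 0% of all 14428 tested genes did, and edgeR and DESeq2 on the recovered reads also called 0. At an unadjusted limma p under 0.05 there were 3 of the 32, or 9.38%, namely Pdia4, Hyou1 and Crebrf, against 3.63% of all tested genes (524 genes in limma, 495 in edgeR and 558 in DESeq2). That number was 8 within samples 1 and 2 (760 of all tested genes) and 0 within samples 3 and 4 (501). It was 5 without ethanol 3 (571), where Hspa5 and Edem1 were added. Leaving out any other single library gave 2 to 4, with 2 without saline 2, ethanol 1 or ethanol 2. The same 3 genes, Pdia4, Hyou1 and Crebrf, were those whose ethanol and saline values did not overlap, against 2.32% of all tested genes. Most differences were small: 29 of the 32 genes had a 95% interval inside 1.5-fold in either direction. Of the 34 genes 22 averaged 1000 normalized counts or more. At that level 99.5% of 3450 genes had an interval this narrow, and among all tested genes 56.3%. The log2 fold change was positive for 26 genes and negative for 6, with a median of 0.058, where 48.8% of all tested genes were positive with a median of -0.0054. Within samples 1 and 2, 28 of the 32 were positive (median 0.13), and within samples 3 and 4, 15 of the 32 (median -0.011).

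**Figure D2:**
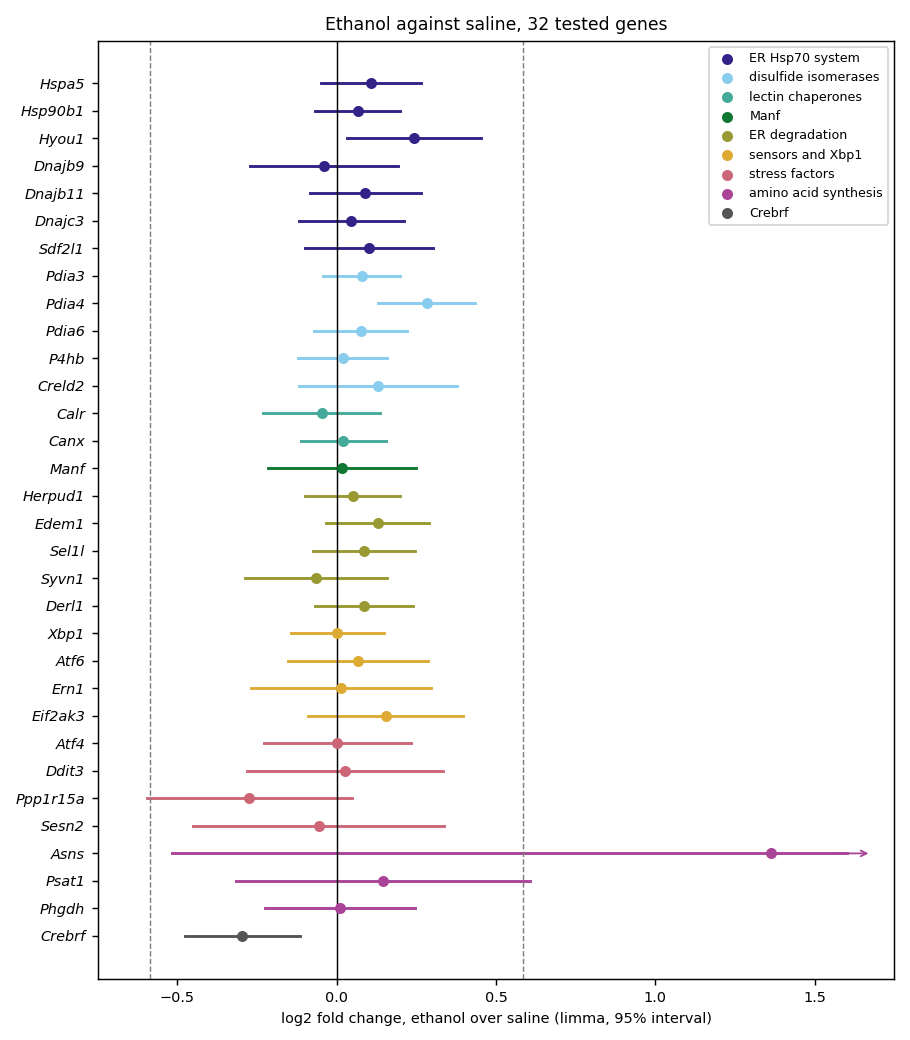
Log2 fold change, ethanol against saline, of the 32 tested genes (x axis, log2 of the normalized count plus 1; points with 95% intervals from limma, n = 4 libraries per group), coloured by role, with dashed lines at 1.5-fold. The interval of Asns runs past the edge, to a fold of 9.45. Most points lie just to the right of 0 with intervals that include 0, and the intervals of Pdia4 (0.28), Hyou1 (0.24) and Crebrf (-0.30) do not include it.

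Among the chaperones of the HSP70 system, Hspa5 was the most abundant and Hyou1, the exchange factor that releases nucleotide from BiP, had the widest separation of the groups. Hspa5 had 18541, 21188, 21250 and 19418 normalized counts in saline 1 to 4, and 23837, 23070.4, 18764.5 and 21214 in ethanol 1 to 4. Ethanol 1 and 2 were the highest libraries, ethanol 3 was next to the lowest, and the groups overlapped. The fold was 1.08 (95% interval 0.967 to 1.20; limma adjusted p = 0.997), with a log2 fold change of 0.24 for samples 1 and 2 and -0.026 for samples 3 and 4. Leaving out each library in turn gave log2 fold changes from 0.062 (without ethanol 1) to 0.18 (without ethanol 3). Of these omissions, only that of ethanol 3 gave an unadjusted limma p under 0.05.

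Hyou1 had 897, 821, 855 and 875 normalized counts in saline and 1116, 1065, 985 and 926 in ethanol libraries. Every ethanol library lay above every saline library, and ethanol 4 and saline 1 were the nearest. Its fold was 1.18 (95% interval 1.02 to 1.37; limma adjusted p = 0.997). The log2 fold change was 0.34 for samples 1 and 2, 0.14 for samples 3 and 4, and from 0.20 to 0.29 when each library was left out in turn.

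Hsp90b1, the HSP90 chaperone of the organelle, had 10149, 9745, 9369 and 10169 normalized counts in saline and 11100.1, 10667, 9619 and 9920.1 in ethanol libraries. The groups overlapped, with ethanol 1 highest and saline 3 lowest, and the fold was 1.05 (0.953 to 1.15). Sdf2l1, part of a complex with the co-chaperone encoded by Dnajb11, had 1652, 1723, 2196 and 1961 in saline and 2029, 2010.1, 2086 and 1908 in ethanol libraries. Its saline libraries spread more widely than the ethanol libraries and lay on both sides of them. Dnajb9, a co-chaperone that represses IRE1, had 1093, 1189.9, 1386 and 1022 in saline and 1271, 1108, 1039 and 1125 in ethanol libraries, again with the saline libraries at both ends. The log2 fold changes were 0.10 for Sdf2l1, -0.041 for Dnajb9, 0.090 for Dnajb11 and 0.045 for Dnajc3, an inhibitor of PERK, and in none did the interval exclude 0.

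**Figure D3:**
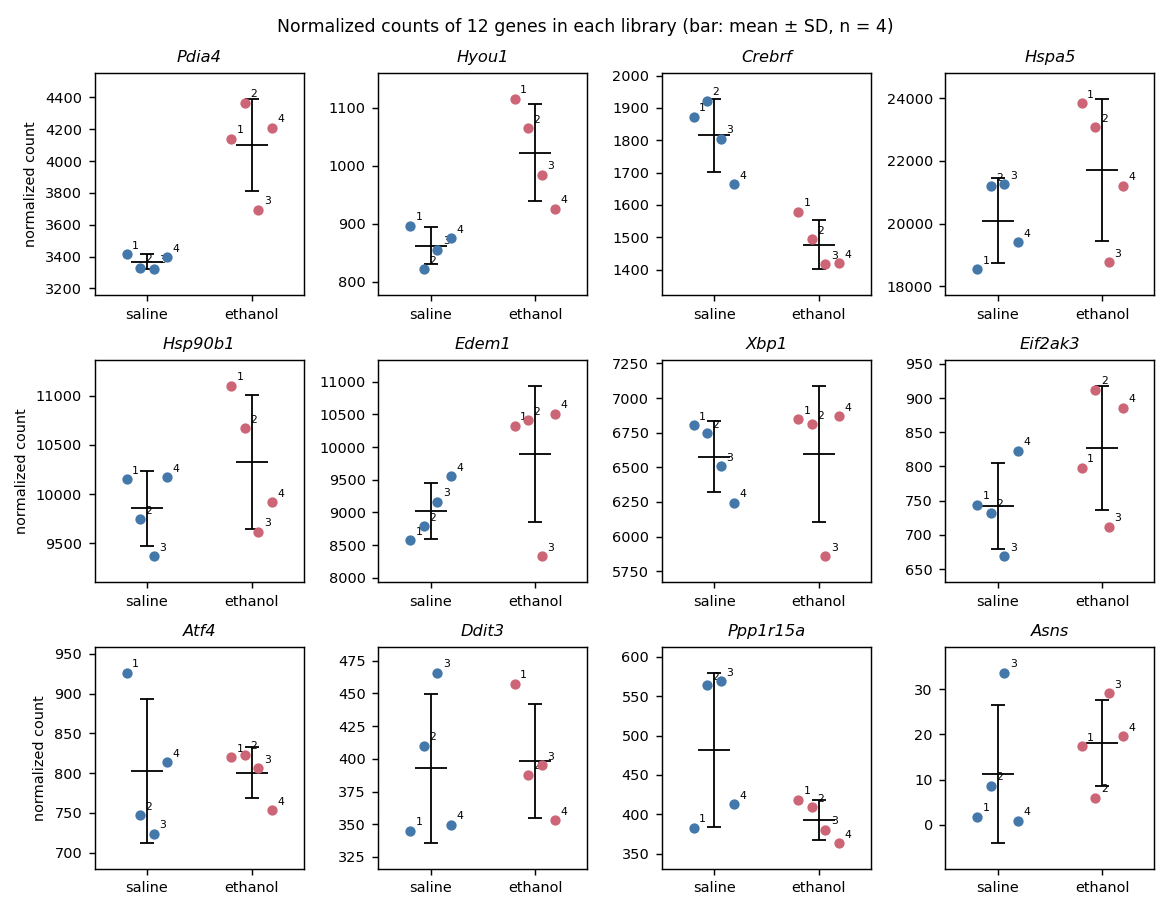
Normalized counts (y axis, a separate scale per gene that does not start at 0) of 12 genes in saline and ethanol libraries 1 to 4, with the mean ± SD (n = 4 each). The groups do not overlap for Pdia4, Hyou1 and Crebrf and overlap for the other 9, and ethanol 3 lies lowest or near lowest for Hspa5, Edem1 and Xbp1.

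The disulfide isomerases form and rearrange the disulfide bonds of folding proteins, and Pdia4 had the smallest unadjusted p of the 34 genes. It had 3416, 3329, 3322 and 3397 normalized counts in saline and 4140.0, 4367, 3694 and 4209 in ethanol libraries. The saline libraries lay close together, with a coefficient of variation of 1.40%, and the ethanol libraries spread more (7.03%) and each lay above every saline library. The log2 fold change was 0.28 (SE 0.072), in the fourth place by p among all tested genes (limma adjusted p = 0.997). Over the alternatives the smallest adjusted p was 0.397, in DESeq2. Within samples 1 and 2 the log2 fold change was 0.33, within samples 3 and 4 it was 0.23, and leaving out each library gave 0.25 to 0.33.

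The other 4 isomerases had smaller log2 fold changes with groups that overlapped. They were 0.13 for Creld2, 0.078 for Pdia3, 0.075 for Pdia6 and 0.019 for P4hb, which encodes the classical protein disulfide isomerase. The lectin chaperones, which hold glycoproteins by their sugar, stood close to equal. Calr had 4362, 3788, 3668 and 4029.6 normalized counts in saline and 4464, 3752.5, 3718 and 3442 in ethanol libraries, so that ethanol held both the highest and the lowest value (log2 fold change -0.047). Canx had a log2 fold change of 0.021, and Manf, a secreted survival factor kept in the organelle by BiP, had 0.016.

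Degradation from the endoplasmic reticulum rests on Syvn1, the ubiquitin ligase HRD1, with its partner Sel1l, the channel protein Derl1, the scaffold Herpud1 and the lectin Edem1. Herpud1, which is short-lived and strongly stress-induced in many cells, had 3917, 4405, 4345 and 4315 normalized counts in saline and 4099.8, 4522, 4616 and 4343 in ethanol libraries. The groups overlapped over most of their range (fold 1.04, 0.934 to 1.15). Edem1 had 8578, 8789, 9161 and 9556 in saline and 10326, 10409, 8327 and 10513 in ethanol libraries. Ethanol 3 lay below every saline library and the other 3 ethanol libraries lay above every one. Its log2 fold change was 0.13 over all libraries (limma adjusted p = 0.997), 0.26 for samples 1 and 2 and 2.5e-05 for samples 3 and 4. Leaving out each library in turn gave 0.097 (without ethanol 4) to 0.21 (without ethanol 3). Of these omissions, again only that of ethanol 3 gave an unadjusted limma p under 0.05. The log2 fold changes were 0.086 for Sel1l, 0.087 for Derl1 and -0.065 for Syvn1.

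Together the 20 folding and degradation genes held 0.723 ± 0.0099% (SD, n = 4) of the counts of saline libraries and 0.763 ± 0.0434% (n = 4) of those of ethanol libraries, and 17 of the 20 had a positive log2 fold change, with a median of 0.077. Their score, the mean log2 deviation from each gene's mean, was -0.063, -0.060, 0.031 and -0.054 in saline 1 to 4 and 0.091, 0.080, -0.057 and 0.034 in ethanol 1 to 4. Saline 3 and ethanol 3 lay on the other side of 0 from the rest of their groups. The share of 4 microglial markers, Tmem119, P2ry12, Cx3cr1 and Csf1r, was likewise 3.01 ± 0.0496% in the saline group and 3.19 ± 0.0757% in the ethanol group (SD, n = 4 each), and its part in the share of the folding genes was not tested.

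**Figure D4:**
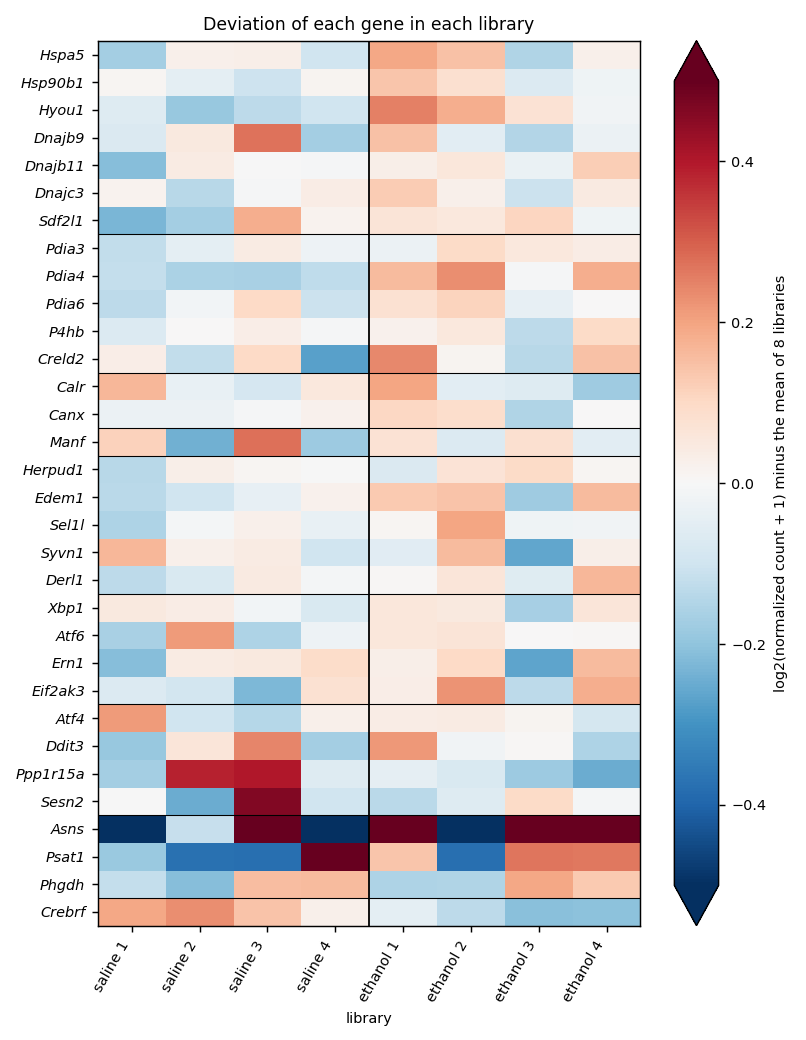
Log2 deviation of each of the 32 tested genes from its mean over the 8 libraries (colour, ending at 0.5 either way, which Asns passes; genes from top to bottom by role, libraries from left to right). The folding genes are mostly above their means in ethanol 1 and 2 (scores 0.091 and 0.080) and below them in saline 1 and 2 (-0.063 and -0.060), and mostly below in ethanol 3 (-0.057).

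The sensors and Xbp1 had log2 fold changes of 0.0020 to 0.15, positive in 4 of 4, with groups that overlapped in each. Xbp1 had 6805, 6747, 6508 and 6245 normalized counts in saline and 6847, 6812, 5857 and 6868 in ethanol libraries. Ethanol 3 was the lowest of the 8 and the other ethanol libraries were the highest (fold 1.00, 0.905 to 1.11). Counts per gene do not separate the form spliced by IRE1 from the unspliced form. Atf6 had 916, 1189, 923 and 1007 in saline and 1067, 1073, 1029 and 1031 in ethanol libraries. The ethanol libraries of Atf6 lay close together (coefficient of variation 2.20%) inside the range of the saline libraries (12.6%). Ern1, which encodes IRE1, had 419, 499.9, 503 and 518 in saline and 495, 520.3, 404 and 542 in ethanol libraries, with 1 low library in each group. Eif2ak3, which encodes PERK, had 744, 732, 669 and 823 in saline and 798, 912, 712 and 886 in ethanol libraries. Its fold of 1.11 (0.940 to 1.32) was the largest of these 4, and ethanol 2 and 4 were its highest libraries.

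The integrated stress response genes gave no common direction: 5 of the 7 tested genes were positive, with a median log2 fold change of 0.010, and they held 0.0248 ± 0.00164% of the counts in saline and 0.0245 ± 0.00152% in ethanol libraries, Trib3 and Chac1 included. Atf4, whose protein is set largely by translation, had 927, 747, 724 and 814 normalized counts in saline and 820.2, 823, 806 and 753 in ethanol libraries. The ethanol libraries lay inside the saline range (fold 1.00, 0.854 to 1.17). Ddit3, which encodes the pro-apoptotic factor CHOP, had 345, 410.1, 466 and 349.7 in saline and 457, 388, 395 and 353 in ethanol libraries, also inside that range (fold 1.02, 0.822 to 1.26).

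Trib3, a pseudokinase gene induced by CHOP that feeds back on ATF4, was counted in 3, 1, 2 and 1 reads in saline 1 to 4 and in 9, 0, 18 and 0 reads in ethanol 1 to 4. Only ethanol 1 and ethanol 3 stood above 3 reads. Chac1, an enzyme gene of glutathione breakdown, had 2 reads in saline 2, 2 reads in ethanol 2 and 0 in the other 6 libraries, so neither group had reads enough for a fold. Asns, the asparagine synthetase gene and a sensitive ATF4 target in many cells, had 1.85, 8.69, 33.6 and 0.908 normalized counts in saline and 17.4, 6.02, 29.1 and 19.6 in ethanol libraries. The saline libraries spanned the ethanol range at both ends, and the fold of 2.57 had a 95% interval of 0.699 to 9.45, the widest of the 32. On the recovered reads the fold of Asns was 1.61 in both edgeR and DESeq2, and in limma it was 4.48 without saline 3 and 1.71 without saline 4. The serine synthesis genes Psat1 and Phgdh had log2 fold changes of 0.14 and 0.010. Psat1 ranged from 262 to 533 normalized counts in saline and from 262 to 410.1 in ethanol libraries.

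Ppp1r15a encodes GADD34, the phosphatase subunit that reverses eIF2-alpha phosphorylation, and Sesn2 encodes a stress-induced inhibitor of mTORC1. Ppp1r15a had 383, 564, 569 and 412 normalized counts in saline and 418, 409, 380.1 and 363 in ethanol libraries. Saline 2 and 3 stood above the other 6 libraries, which overlapped (log2 fold change -0.27, limma adjusted p = 0.997). Its unadjusted p was under 0.05 without saline 1 and with the library-name number as a covariate. It is also an immediate early gene of many cells, and immediate early genes can respond to tissue dissociation. A list of 21 other such genes had scores of -0.43, -0.18, 0.99 and -0.17 in saline 1 to 4 and -0.25, -0.27, 0.27 and 0.039 in ethanol 1 to 4, and 4 of its 20 tested genes had a positive log2 fold change. Saline 3 was the highest library of that list, and its part in the Ppp1r15a values was not tested. Sesn2 had a log2 fold change of -0.057.

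Crebrf, whose protein promotes the breakdown of CREB3, a membrane-bound factor related to ATF6, was the gene with non-overlapping groups on the lower side. It had 1872, 1922, 1804 and 1663 normalized counts in saline and 1579.5, 1495, 1417 and 1419 in ethanol libraries. Each ethanol library lay below each saline library, and saline 4 and ethanol 1 were the nearest. The log2 fold change was -0.30 (SE 0.086), a fold of 0.814 (0.718 to 0.923), with an adjusted p of 0.997 in limma and 0.624 in DESeq2. It was -0.30 for samples 1 and 2, -0.29 for samples 3 and 4, and -0.34 to -0.27 when each library was left out.

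Whether the genes vary together was described over the 8 libraries. Hspa5 and Atf4 were each correlated with the other tested genes, 61 pairs in all, on log2 values with a two-sided exact permutation test. No pair passed a threshold of 0.05 after adjustment over the 61 (smallest adjusted exact p of 0.416 for Pearson's r and 0.221 for Spearman's rho), and 7 pairs for r and 5 for rho had an unadjusted exact p under 0.05. The closest to Hspa5 was the isomerase gene Pdia6 (r = 0.86, exact p = 0.0084; rho = 0.90, exact p = 0.0046; adjusted 0.416 and 0.221). Without saline 1 and ethanol 3, the libraries farthest from the median of Hspa5, its r was 0.81. Canx had r = 0.79 (exact p = 0.018, adjusted 0.416) and rho = 0.81 (exact p = 0.022, adjusted 0.443), and r = 0.73 without those 2 libraries. Edem1 had r = 0.77 (exact p = 0.032, adjusted 0.416) and rho = 0.71 (exact p = 0.058, adjusted 0.470), and r = 0.50 without them. Sel1l had r = 0.71 (exact p = 0.032, adjusted 0.416) and rho = 0.88 (exact p = 0.0072, adjusted 0.221), and r = 0.57 without them. P4hb had r = 0.72 (exact p = 0.042, adjusted 0.416) and rho = 0.76 (exact p = 0.037, adjusted 0.448), but r = 0.28 without those 2 libraries. Its r was 0.74 with the group means subtracted, and 0.77 with the means of samples 1 and 2 and of samples 3 and 4 subtracted.

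As a description, r with Hspa5 was positive for 17 of 19 folding and degradation genes, with a median of 0.56. That median was 0.45 after the group means were subtracted and 0.61 after the means of samples 1 and 2 and of samples 3 and 4 were. The 4 sensors and factors were all positive (median 0.52). Without saline 1 and ethanol 3 their r was 0.78 for Xbp1, 0.25 for Atf6, 0.19 for Eif2ak3 and -0.30 for Ern1. The 7 integrated stress response genes had a median of -0.16 with 3 positive. All 9787 genes other than Hspa5 with a mean of at least 100, those of the set included, had a median of 0.026. Atf4 had a median r of -0.26 with the folding genes and of -0.41 with the 6 other tested integrated stress response genes, of which 1 was positive. The highest r of Atf4 was 0.72 with Calr (exact p = 0.046, adjusted 0.416), where rho was 0.64 (exact p = 0.096, adjusted 0.533). The lowest was -0.74 with Dnajb11 (exact p = 0.048, adjusted 0.416), where rho was -0.29 (exact p = 0.50, adjusted 0.783). Its highest rho was 0.76 with Hsp90b1 (exact p = 0.037, adjusted 0.448), where r was 0.51 (exact p = 0.19, adjusted 0.483). Without saline 1 and saline 3, the libraries farthest from the median of Atf4, r was 0.59 with Calr, -0.54 with Dnajb11 and 0.62 with Hsp90b1. Among the folding genes r then turned positive for Sdf2l1 (0.82), Sel1l (0.40), Pdia3 (0.30), Pdia6 (0.24) and Edem1 (0.17). Syvn1 turned negative (-0.19). Of the stress response genes Sesn2 (0.30), Ddit3 (0.21) and Phgdh (0.065) turned positive. Dnajb9, P4hb, Creld2, Herpud1, Derl1, Ppp1r15a and Asns stayed negative, so the signs behind both medians depended in part on these 2 libraries.

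Among genes with a mean of at least 100, those named only as gene models, clones or accessions were left out. Of the rest, the 5 whose values over the 8 libraries were most like those of Hspa5 were Lpar6 (r = 0.97), Itga9 (0.96), Tmem91 (0.95), Pik3r1 (0.94) and Rnf19a (0.93). For Atf4 they included Lrsam1 (0.95), Lcp2 (0.94), Stk38 (0.94) and Cdk8 (0.93). None of the genes named here is among the 34. They were picked out of 9787 genes less those left out, so such values describe these libraries and carry no test.

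**Figure D5:**
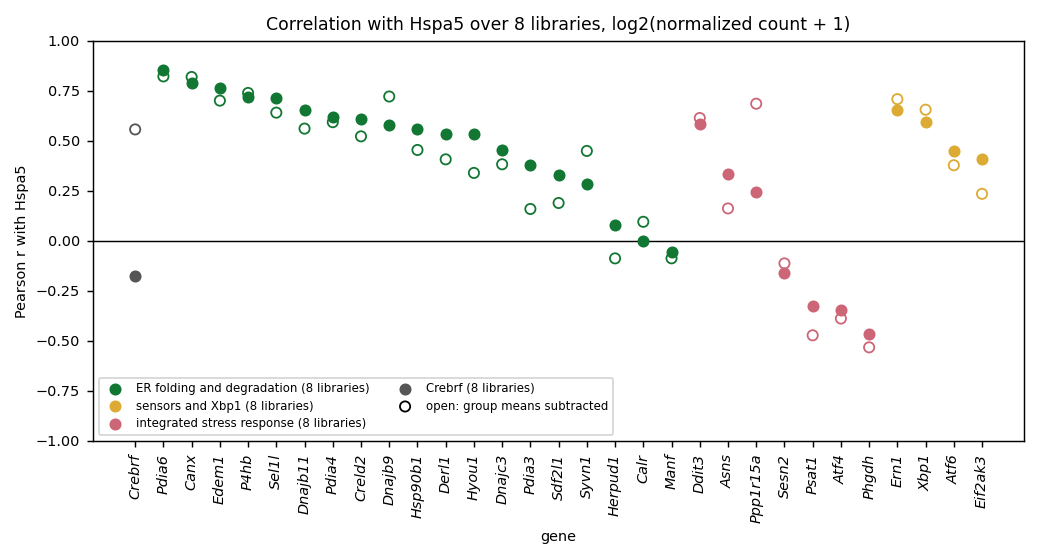
Pearson's r with Hspa5 (y axis, no unit) of the other 31 tested genes (x axis, by arm) over the 8 libraries, with open points for r after the group means were subtracted. The folding genes lie mostly above 0 (median 0.56, or 0.45 with group means subtracted) and the integrated stress response genes on both sides of it (median -0.16).

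Ethanol and saline were also compared by promoter element. Of the 8 genes with ERSE 6 had a positive log2 fold change, from -0.065 to 0.13 with a median of 0.055, beside the 26 of 32 and the median of 0.058 over all tested genes of the set. Dnajb11 and Herpud1, with ERSE-II, had 0.090 and 0.050. No ERSE, ERSE-II or CARE letters were found in the windows of Pdia4 and Crebrf, and the window of Hyou1 was not used here.

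Other genes of the same pathways, 170 in 8 lists, of which 161 were tested, were measured in the same fit. In limma 0 were called, 4 (2.48%) had an unadjusted p under 0.05 and 3 (1.86%) had groups that did not overlap, beside 3.63% and 2.32% of all tested genes. The log2 fold change was positive for 98 (60.9%, beside 48.8% of all tested genes) and negative for 63, with a median of 0.026. By list, positive values were found in 12 of 23 other folding genes, 13 of 19 other degradation genes, 18 of 29 translocation and glycosylation genes, 13 of 20 transport genes and 9 of 12 other genes of unfolded protein signalling. They were found in 8 of 15 genes of initiation control, 12 of 22 other ATF4 and CHOP targets and 13 of 21 cytosolic tRNA synthetase genes.

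From each of these lists the positive and the negative gene with the smallest unadjusted p are given here, among genes that average 50 or more. Of the folding genes they were Txndc5, an isomerase (fold 1.09, 0.962 to 1.24), and Erp29, a chaperone of secretory proteins (0.880, 0.780 to 0.993). In degradation they were the lectin Os9 (1.10, 0.988 to 1.24) and Aup1 (0.902, 0.763 to 1.07). In translocation they were Sec63 (1.16, 0.993 to 1.36) and the signal recognition particle receptor subunit Srprb (0.865, 0.734 to 1.02). Srprb had 1071, 1325, 1549 and 1373 normalized counts in saline and 1141, 1094, 1080.02 and 1253 in ethanol libraries, so the groups overlapped through saline 1. In transport they were the cargo lectin Lman1 (1.08, 0.967 to 1.21) and the coat protein gene Sec24a (0.791, 0.639 to 0.978), and in unfolded protein signalling Wfs1 (1.38, 0.889 to 2.16) and Creb3l2 (0.928, 0.814 to 1.06).

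The other eIF2-alpha kinases Eif2ak2 (PKR) and Eif2ak4 (GCN2) had folds of 1.20 (0.946 to 1.53) and 0.907 (0.733 to 1.12). Mthfd2, a mitochondrial folate enzyme gene and ATF4 target, had 228, 269, 217 and 248 normalized counts in saline and 242, 242, 496 and 227 in ethanol libraries. Ethanol 3 alone stood high, and the other 7 libraries overlapped. Cebpg, which encodes a dimer partner of ATF4, had 3612, 3645, 3654 and 3386 in saline and 3348, 2976.5, 2764 and 2946 in ethanol libraries. Each ethanol library lay below each saline library (fold 0.840, 0.751 to 0.940; limma adjusted p = 0.997). The tRNA synthetase genes Tars and Kars had folds of 1.13 (0.972 to 1.31) and 0.877 (0.736 to 1.04).

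Some counts may hold reads of neighbours. The libraries do not mark strand, and in the annotation 10 of the 34 genes share exon bases with another gene, 9 of them with one on the opposite strand. The largest shared part was 10.3% of the exon bases of Hsp90b1. In Pdia4 0.584% were shared, with a microRNA gene listed at 0, and Hyou1 and Crebrf shared none. In sorted cells in bulk, fewer cells of a state and less RNA per cell cannot be told apart.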

How the data were processed

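RNA-seq of sorted microglia gave 8 libraries, 4 per group, grouped by their titles. Per the labels' protocols, picogram amounts of RNA were amplified as cDNA with a SMARTer kit, made into NexteraXT libraries, which do not mark strand, and sequenced in paired ends. The submitters' processing notes name GRCm39, R 4.2.2, DESeq2, Salmon 1.5.2, featureCounts 2.0.1, Subread, STAR 2.7.9a and bcl2fastq 2.19.1. What each did, its settings and the gene annotation: not given in the sources used here. The file the authors deposited holds 1 signal value per gene and library and is named as DESeq2-normalized counts. Each library's values divided by its smallest non-zero value were whole within 1e-06 for 100% of the values, so whole reads were recovered from the deposited values, 14271351 to 17231301 per library. There are no molecular identifiers, so floors of 3 reads cover counting error only.

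The test was limma 3.58.1 on log2(value + 1) (R 4.3.3; intensity trend; intercept and group; two-sided), over the 14428 genes that average 10 or more, with p-values adjusted over all of them by Benjamini-Hochberg at 0.05. Folds and 95% intervals are on that scale, where the added 1 shrinks log ratios of low genes. A difference of mean logs can also exceed the ratio of mean counts, as it does for Asns. Correlations used the 40320 pairings of 8 libraries (Python 3.11.15, SciPy 1.17.1). Exon lengths came from GENCODE for GRCm38 and promoters from RefSeq. Alternatives were pseudocounts of 0.5 and 5, quantile normalization, no filter, a minimum mean of 50, a block for the sample number, a covariate for the number in each library name, samples 1 and 2 against 3 and 4 as a term and each set alone, omitting single libraries, and DESeq2 1.42.0 and edgeR 4.0.16 (quasi-likelihood) on the recovered reads, 14418 and 14428 genes with a p. The procedure was tested on simulated data.

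The 34 genes, the lists and the tests were chosen with earlier results of these data known. Library values are given for those of the 34 with an unadjusted p under 0.05 and for 18 fixed genes (Hspa5, Hsp90b1, Calr, Pdia4, Herpud1, Sdf2l1, Dnajb9, Xbp1, Atf6, Ern1, Eif2ak3, Atf4, Ddit3, Trib3, Asns, Chac1, Ppp1r15a and Crebrf), and for Edem1, chosen after its values were seen. From each list of other genes the smallest unadjusted p in each direction was named, and library values of 4 of these (Srprb, Mthfd2, Cebpg and Nr4a1) were added after their values were seen. Some genes that the rules select, and sums that include them, are not reported here.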

Additional observations from a re-analysis of the deposited data

Results flagged for a closer look

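In 4 of 64 groups of 4 libraries (32 tested genes, 2 groups each) 1 library stood apart from the other 3 by more than Dixon's 95% critical value allows, where chance gives about 1 group in 20. Edem1 was at 8327 normalized counts in ethanol 3, with the other ethanol libraries between 10326 and 10513. Xbp1 was also low in ethanol 3, at 5857 against 6812 to 6868. Sel1l stood high in ethanol 2, at 4301 against 3689 to 3776. Ern1 was low in saline 1, at 419 against 499.9 to 518.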

How the results depend on the processing

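In limma, edgeR and DESeq2, 0 of all tested genes, and so 0 of the 34, were called under each of the 20 alternatives, and the smallest adjusted p among the 34 was 0.397. Of the 32 tested genes 15 kept the sign of their log2 fold change in each alternative and 17 did not, and the largest value over all libraries among these 17 was 0.11 (Hspa5). In the 4 alternatives for the correlations 0 pairs passed. The median log2 fold change of the 32 came to 0.13 in samples 1 and 2 and to -0.011 in samples 3 and 4, where 15 genes were positive. Within samples 3 and 4 the sign turned for Canx (-0.084), Ddit3 (-0.11), Dnajc3 (-0.047), Ern1 (-0.12), Hspa5 (-0.026), Manf (-0.032), P4hb (-0.032), Pdia6 (-0.017), Sdf2l1 (-0.057), Sel1l (-0.015) and Xbp1 (-0.0074). Within samples 1 and 2 it turned for Atf4 (-0.018), Calr (0.0099), Dnajb9 (0.057) and Sesn2 (0.026). It turned for Atf4 in DESeq2 (-0.0044), for Ddit3 (-0.042) and Xbp1 (-0.0077) with the library-name number as a covariate, and for Xbp1 under quantile normalization (-0.0041). Leaving out each library, the range crossed 0 for Atf4 (-0.046 to 0.073), Calr (-0.12 to 0.0040), Canx (-0.010 to 0.075), Ddit3 (-0.043 to 0.11), Dnajb9 (-0.10 to 0.043), Ern1 (-0.056 to 0.10), Manf (-0.062 to 0.11), P4hb (-0.010 to 0.066), Phgdh (-0.059 to 0.064), Sesn2 (-0.15 to 0.088), Syvn1 (-0.13 to 0.011) and Xbp1 (-0.023 to 0.058). The cause was not tested. The unadjusted limma p of Hyou1 was no longer under 0.05 without ethanol 1, ethanol 2 or saline 2.

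The sample numbers were not taken to pair the libraries: same-numbered libraries had correlations of their deviations from the group means of 0.028, 0.064, 0.080 and 0.014, and of the 8 libraries only ethanol 2 and ethanol 3 correlated best with their own number. With the sample number as a replicate block 0 genes were called, 26 of the 32 genes were positive, and 645 of all genes had an unadjusted p under 0.05. Depth limits Trib3, Chac1 and Asns, whose libraries held few reads.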

Other observations

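The heat shock genes of the cytosol, a chaperone system separate from that of the endoplasmic reticulum, had 1 of 13 tested genes with a positive log2 fold change, a median of -0.10 and 0 called in limma (0 with an unadjusted p under 0.05). Their scores were -0.079, 0.36, 0.75 and -0.61 in saline 1 to 4 and 0.87, -0.45, -0.56 and -0.29 in ethanol 1 to 4. Ethanol 1 and saline 3 were the highest libraries, and the groups overlapped over most of their range. Chordc1, an HSP90 co-chaperone gene, was the gene with the positive value (fold 1.06, 95% interval 0.850 to 1.32), and Bag3, an HSP70 co-chaperone gene, had a fold of 0.895 (0.737 to 1.09).

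Of the immediate early genes, Nr4a1 and Rhob had the smallest unadjusted p in each direction. Nr4a1 had 4.62, 26.1, 97.9 and 89.9 normalized counts in saline and 64.1, 40.1, 130.4 and 136.9 in ethanol libraries, and samples 3 and 4 were the highest in both groups. Rhob had a fold of 0.909 (0.828 to 0.998).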
